A study of Caenorhabditis elegans with 2 samples.

Results

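The piRNA gene clusters of chromosome IV were examined in a ChIP-seq experiment on TBX-7, a T-box transcription factor of Caenorhabditis elegans. The peaks described are all those of the list called on both replicates together, before the test of irreproducible discovery rate (IDR), whose summit lay at IV:4500000-7000000 (cluster 1) or IV:13500000-17200000 (cluster 2). They numbered 398 of 8759 peaks, 189 in cluster 1 and 209 in cluster 2, and 31 of them were also in the optimal list, which holds the peaks that passed the IDR test. That first list is lenient and, by its label, includes background: the median −log10 q of its peaks was 0.18 in the clusters and in the whole list. The single group of the study was strain OP311 (hermaphrodite), which stably expresses TBX-7 with a C-terminal GFP-FLAG tag, collected as whole late embryos 3 h after synchronization by egg bleaching. There were 2 biological replicates, chromatin was recovered with an anti-GFP antibody per the sample descriptions (the antibody field names tbx-7), and 1 control alignment served both. No group without the tagged protein was analysed here. In whole embryos the cells that carried a site cannot be told apart. Coordinates are 1-based on ce11 (WBcel235), and the sources used here give no read depth.

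piRNAs are small RNAs bound by the Argonaute protein PRG-1, which guard the germ line against transposons and other foreign sequence. In C. elegans most piRNAs come from very short genes, each transcribed on its own by RNA polymerase II in germ cells, and most of those genes carry an upstream element known as the Ruby motif. SNPC-4, PRDE-1, TOFU-4 and TOFU-5 are known to act together at these promoters, and SNPC-4 also serves genes of small nuclear RNAs. Protein-coding genes lie among the piRNA genes.

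The annotation bore out the name of the clusters. Of 15363 piRNA genes in the genome, 14714 were on chromosome IV and 14204 (92.5%) began inside the clusters. This gave 1126 per Mb in cluster 1 and 3078 per Mb in cluster 2, against 45.2 per Mb on the rest of chromosome IV. All cluster piRNA genes were annotated with a length of 21 bases, and 96.2% began with T. The word TGTTTCA, part of the Ruby motif, occurred on the gene's own strand within the 60 bases before 48.5% of cluster piRNA genes (Wilson 95% interval 47.7 to 49.3%), at a median of 45 bases before the piRNA. Of the 1159 piRNA genes elsewhere, 29.7% had it.

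Of the 6 piRNA genes that were nearest to an optimal-list summit and within 500 bp of it, the 4 that carried this word are shown. Each line gives the 60 bases before the gene and its 21 bases, 5′ to 3′ on the strand of the gene, from the RefSeq sequence of WBcel235, with TGTTTCA in capitals. In 21ur-15446, 21ur-6245 and 21ur-8889 the word began 47, 45 and 46 bases before the piRNA, and in 21ur-5229 18 bases before it. In the order shown they lie at IV:6207082-6207102 (minus strand), IV:16995073-16995093 (minus), IV:15571235-15571255 (plus) and IV:5967089-5967109 (plus).
21ur-15446: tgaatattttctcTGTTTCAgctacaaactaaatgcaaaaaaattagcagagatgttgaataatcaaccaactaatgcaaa
21ur-6245: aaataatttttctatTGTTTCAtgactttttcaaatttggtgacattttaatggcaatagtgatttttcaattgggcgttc
21ur-8889: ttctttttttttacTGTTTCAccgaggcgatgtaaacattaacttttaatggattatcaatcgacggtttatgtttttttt
21ur-5229: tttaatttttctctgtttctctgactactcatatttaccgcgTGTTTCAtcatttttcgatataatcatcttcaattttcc

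Summit windows of 101 bases on the plus strand are shown for the strongest optimal peak of each cluster and for the optimal peak nearest to a piRNA gene in each cluster. Capitals mark the piRNA gene 21ur-5229 in the tRNA gene peak, and in the last line an inverted repeat of 10 bases. None of the 4 windows holds TGTTTCA on either strand, and every 36-base word in them occurs once in the genome.
IV:4660553-4660653: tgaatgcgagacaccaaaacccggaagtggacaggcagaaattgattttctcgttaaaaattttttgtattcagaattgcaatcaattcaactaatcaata
IV:5967088-5967188: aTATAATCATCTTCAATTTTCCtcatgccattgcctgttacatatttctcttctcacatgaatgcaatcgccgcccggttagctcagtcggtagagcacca
IV:17087572-17087672: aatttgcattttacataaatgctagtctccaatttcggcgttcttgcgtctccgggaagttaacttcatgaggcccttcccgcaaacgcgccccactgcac
IV:14872448-14872548: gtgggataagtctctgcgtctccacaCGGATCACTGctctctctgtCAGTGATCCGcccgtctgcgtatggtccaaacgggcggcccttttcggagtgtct
These belong, in order, to the jmjd-1.2 peak and a tRNA gene peak of cluster 1, and to the peak between snx-13 and snr-1 and an intergenic peak of cluster 2.

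Peaks were sparser in the clusters than on the rest of the chromosome. The clusters held 64.2 peaks per Mb and the rest of chromosome IV 87.0 (983 peaks), a ratio of 0.738 (95% interval 0.655 to 0.829 from the exact conditional binomial interval). The ratio was 0.869 (0.739 to 1.02) for cluster 1 and 0.649 (0.556 to 0.754) for cluster 2. For optimal-list peaks, at 5.00 and 6.46 per Mb, the ratio of 0.774 had an interval of 0.491 to 1.19, so a difference was not detectable with 31 peaks. These intervals cover counting error only and take peaks as independent, although 65 of the 398 overlapped another cluster peak. The rest of the chromosome was itself uneven, with 101 peaks per Mb left of cluster 1 and 76.9 between the clusters, close to the 75.6 of cluster 1.

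The share of cluster peaks in the optimal list was near the background. It was 31 of 398, or 7.79% (Wilson 95% interval 5.54 to 10.8%), where the background was 7.88% of all peaks and 7.43% of those on the rest of chromosome IV. The difference from the rest of the chromosome was 0.36 percentage points, with a Newcombe 95% interval of -2.52 to 3.76. Cluster 1 held 13 of these peaks (6.88%) and cluster 2 held 18 (8.61%). Signal, the value the authors' peak caller gave to a peak on its own scale, had a median of 40.6 in the clusters and 40.5 on the rest of the chromosome. It ran from 32.6 to 524 over the cluster peaks. A −log10 q of at least 2 was reached by 44 cluster peaks (11.1%), where the background was 10.3% of all peaks and 9.77% of those on the rest of the chromosome.

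The list of replicate 1 held a summit no more than 100 bp away for 273 cluster peaks, that of replicate 2 for 246, and both lists for 149 (37.4%, Wilson 95% interval 32.8 to 42.3%), against 35.6% of all peaks and 35.3% of those on the rest of chromosome IV. A further 28 had none in either list. All 31 optimal cluster peaks were in both lists, as were 96.2% of all optimal peaks and 94.5% of those on the rest of the chromosome. Over the 149 peaks in both, signal in the 2 lists had a Spearman's rho of 0.69, and over the 31 optimal peaks 0.75. Each of these sites was measured in the same 2 libraries. The IDR test selects peaks for agreement between replicates, so the values for optimal peaks are in large part set by that selection.

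The strongest cluster peak (IV:4660403-4660840) was the eighth strongest of the whole list, with a signal of 524 on both replicates together, 239 in replicate 1 and 281 in replicate 2. Its summit lay 388 bp upstream of jmjd-1.2, which encodes a histone demethylase, and 402 bp upstream of F29B9.11, and the nearest piRNA gene was 30279 bp away, the largest such distance among the optimal cluster peaks. Next came a peak 242 bp upstream of C49A9.10 (IV:6206457-6206711), with a signal of 384 together and of 205 and 176 in replicates 1 and 2. The piRNA gene 21ur-15446, shown above, lay 496 bp from that summit. The strongest peak of cluster 2 (IV:17087350-17087776) lay 184 bp upstream of snx-13, a sorting nexin gene, and 427 bp upstream of snr-1, which encodes an Sm protein of spliceosomal snRNPs. Its signal was 377 together, and 186 and 188 in the replicates. In each replicate these 3 peaks had the highest values of the 31 optimal cluster peaks.

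**Figure D1:**
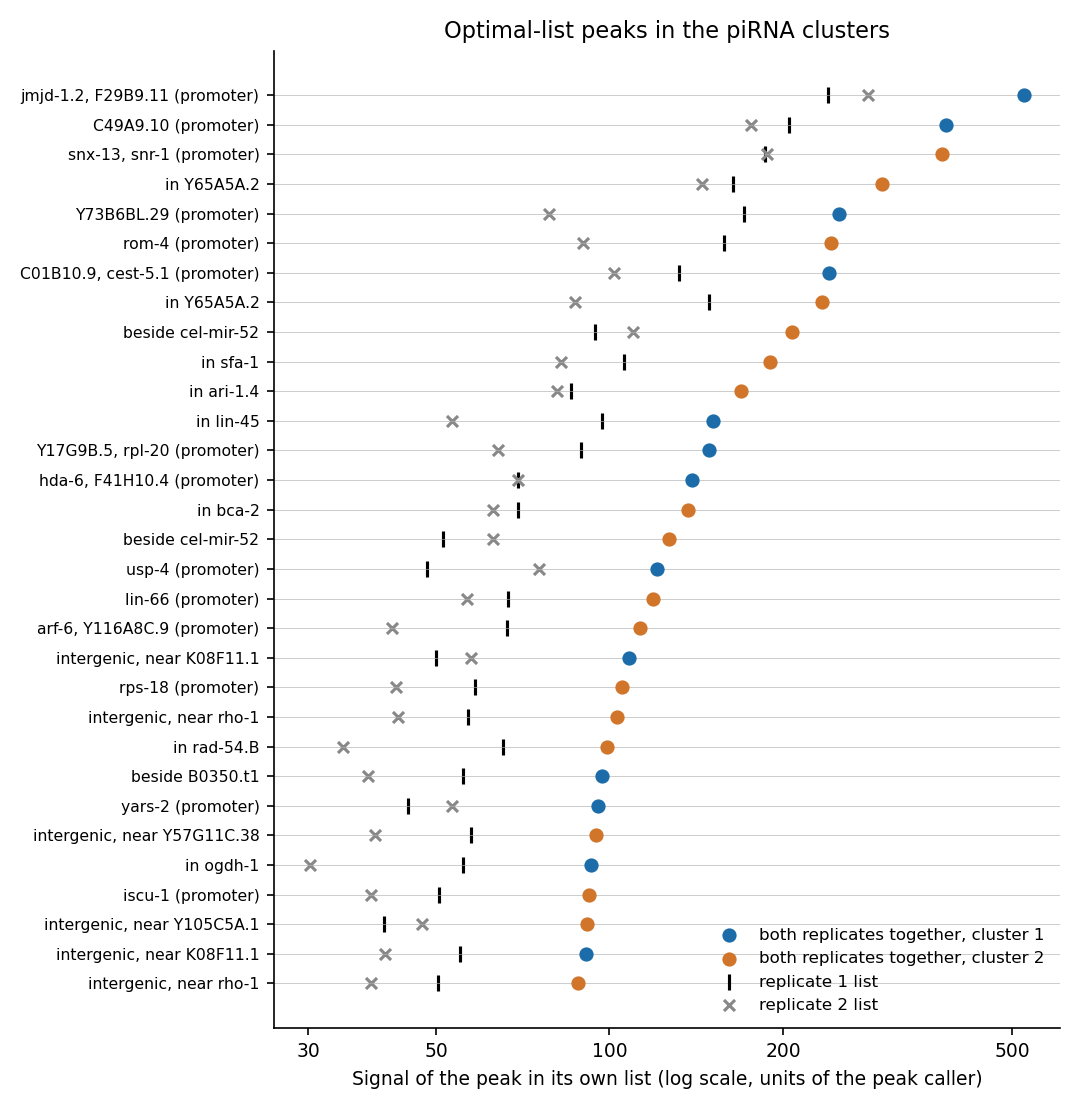
Signal of the 31 optimal-list peaks in the piRNA clusters, one per row, on a log axis in units of the peak caller; circles are the list called on both replicates together (blue cluster 1, orange cluster 2), bars replicate 1 and crosses replicate 2. The values run from 88.3 to 524 in the first list. In 23 of the 31 peaks the replicate 1 value was the higher, but signal is set within a list. The same count over other optimal peaks is not given here, so this is not a trait of the clusters.

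Promoters of protein-coding genes, counted from 1000 bp before a gene start to 200 bp past it, held 14 of the 31 optimal cluster summits (45.2%, Wilson 95% interval 29.2 to 62.2%). The background was 63.0% of all optimal peaks and 68.5% of those on the rest of chromosome IV, where 50 of 73 were in promoters. The difference from the rest of the chromosome was -23.3 percentage points (Newcombe 95% interval -41.9 to -2.83). That interval takes summits as independent. Yet 4 of the 31 overlapped another optimal cluster peak, and outside promoters neighbouring summits lay in Y65A5A.2, beside cel-mir-52, and near K08F11.1 and rho-1. The difference with such neighbours counted once was not computed. Of all 398 cluster peaks 104 (26.1%) were in promoters, against 31.6% of all peaks and 31.7% of those on the rest of chromosome IV. Gene starts were also sparser in the clusters, at 152 against 207 per Mb, and promoters covered 16.6% of cluster bases against 21.9%. Per Mb of promoter, optimal summits numbered 13.6 in the clusters and 20.2 on the rest, a ratio of 0.676 with an interval of 0.345 to 1.24. Counted by genes, 20 of 941 that start in the clusters had an optimal summit in the promoter, or 2.13%, against 3.25% on the rest of the chromosome and a background of 3.12% of all protein-coding genes. That difference was -1.12 percentage points (Newcombe 95% interval -2.21 to 0.18).

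Further promoter peaks of cluster 1 lay near genes of several functions. A peak 53 bp upstream of Y73B6BL.29 (IV:6321767-6322009) had a signal of 250 together, but of 171 in replicate 1 and 78.6 in replicate 2. The peak between C01B10.9 and the carboxylesterase gene cest-5.1 (IV:6631887-6632129) had 240, with 132 and 102 in replicates 1 and 2. One between Y17G9B.5 and rpl-20, which encodes a protein of the large ribosomal subunit, had 149, with 89.2 and 64.0. Upstream of usp-4, a deubiquitinase gene, by 635 bp lay a peak of 121, with 48.2 in replicate 1 and 75.5 in replicate 2. The peak at yars-2, a tyrosyl-tRNA synthetase gene, was weaker (95.5 together, 44.7 and 53.2), with its summit 15 bp upstream of the gene start.

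In cluster 2 the next promoter peak after snx-13 and snr-1 was that of rom-4, a rhomboid family gene (IV:16995491-16995711), with a signal of 242 together and of 158 and 89.9 in replicates 1 and 2. Its summit was 480 bp from 21ur-6245, shown above. The peak 374 bp upstream of lin-66, a gene of the heterochronic pathway, had 119, and that between Y116A8C.9 and arf-6, which encodes a small GTPase of membrane traffic, had 113. A summit 634 bp upstream of the ribosomal protein gene rps-18 (signal 105) lay in an untranslated exon of sec-61.A, which encodes a translocon subunit. The peak 222 bp upstream of iscu-1, a gene for an iron-sulfur cluster scaffold, had 92.3 and lay in an intron of lact-9. The lin-66 peak was 696 bp from the nearest piRNA gene, and the other 3 were at 3749 bp or more.

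Of the optimal cluster summits outside promoters, 8 were in bodies of protein-coding genes and 9 between genes. Intronic sequence of Y65A5A.2 held 2 of them, with signals of 297 and 234 together, 164 and 149 in replicate 1 and 145 and 87.0 in replicate 2. Introns also held the peaks in sfa-1, the gene for splicing factor 1 (signal 190), in ari-1.4, of the Ariadne family of ubiquitin ligases (169), and in lin-45, which encodes the Raf kinase (151). The bca-2 peak (137), in a carbonic anhydrase gene, was the only optimal cluster summit in a coding exon. The intronic peaks in rad-54.B, a recombination gene, and ogdh-1, which encodes a subunit of the 2-oxoglutarate dehydrogenase complex, had 99.2 and 92.7. All 36-base words in the summit window of ogdh-1 occur more than once in the genome, so the assignment of reads there may be uncertain, which was not tested.

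Of the intergenic peaks, 2 overlapped beside the microRNA gene cel-mir-52, with summits 5 bp and 102 bp from it and signals of 207 and 127. Another lay 22 bp from the tRNA gene B0350.t1 (IV:5966916-5967359, signal 97.2). Another 2 neighbouring summits, 252 bp and 486 bp from K08F11.1, had signals of 108 and 91.1, and 53.0% and 45.5% of the 36-base words in their windows were unique. At 2793 bp and 3514 bp from rho-1, which encodes the RhoA GTPase, lay 2 with signals of 88.3 and 103. The last 2, with signals of 94.6 and 91.5, were 6986 bp and 6487 bp from a protein-coding gene start and 296 bp and 321 bp from the piRNA genes 21ur-9510 and 21ur-8889.

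Of the other small RNA genes, tRNA genes had an optimal summit less often in the clusters than on the rest of chromosome IV. The intervals below take genes as independent, although some tRNA genes are close neighbours. The shares over all such genes of the genome are not given here. Of 41 tRNA genes in the clusters 21 had a summit within 200 bp, close to the 17 of 30 on the rest of chromosome IV, but 1 in the clusters and 7 on the rest had an optimal summit, a difference of -20.9 percentage points (Newcombe 95% interval -38.6 to -5.52). Of 18 small nucleolar RNA genes in the clusters 4 had a summit and 0 an optimal one, against 15 and 8 of 41 on the rest, and the interval of the difference in optimal summits, -34.0 to 0.37 points, included 0. For microRNA genes the optimal counts were 1 of 19 in the clusters and 1 of 31 on the rest (difference 2.04 points, -11.63 to 21.59), and for small nuclear RNA genes 0 of 16 and 1 of 25 (interval -19.54 to 15.64). The weakest optimal cluster peak had a signal of 88.3. The strongest cluster peak outside that list had 85.5 and lay in an intron of Y57G11C.22. The next 2 outside it lay in an intron of lag-1, the gene for the Notch pathway transcription factor (84.7), and 274 bp upstream of sqd-1, an RNA-binding protein gene (84.5).

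Cluster peaks lay away from piRNA genes. A summit was within 200 bp of a piRNA gene in 84 of 398 peaks, or 21.1% (Wilson 95% interval 17.4 to 25.4%), whereas 46.4% of cluster bases are that near. Weighted to the GC content of the peaks, the share of bases was 28.7%. Such summits made up 0.407% of peaks on the rest of chromosome IV and 1.22% of all peaks, those of the clusters included. The share of bases that near is not given here for these 2 sets. In cluster 1 the share was 18.5% of summits against 30.1% of bases, and in cluster 2 it was 23.4% against 57.5%. Of the 14204 piRNA genes in the clusters, 151 (1.06%) had a summit within 200 bp. The median distance to a piRNA gene was 239 bp for cluster bases, 1052 bp for cluster peaks outside the optimal list and 4171 bp for optimal peaks.

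**Figure D2:**
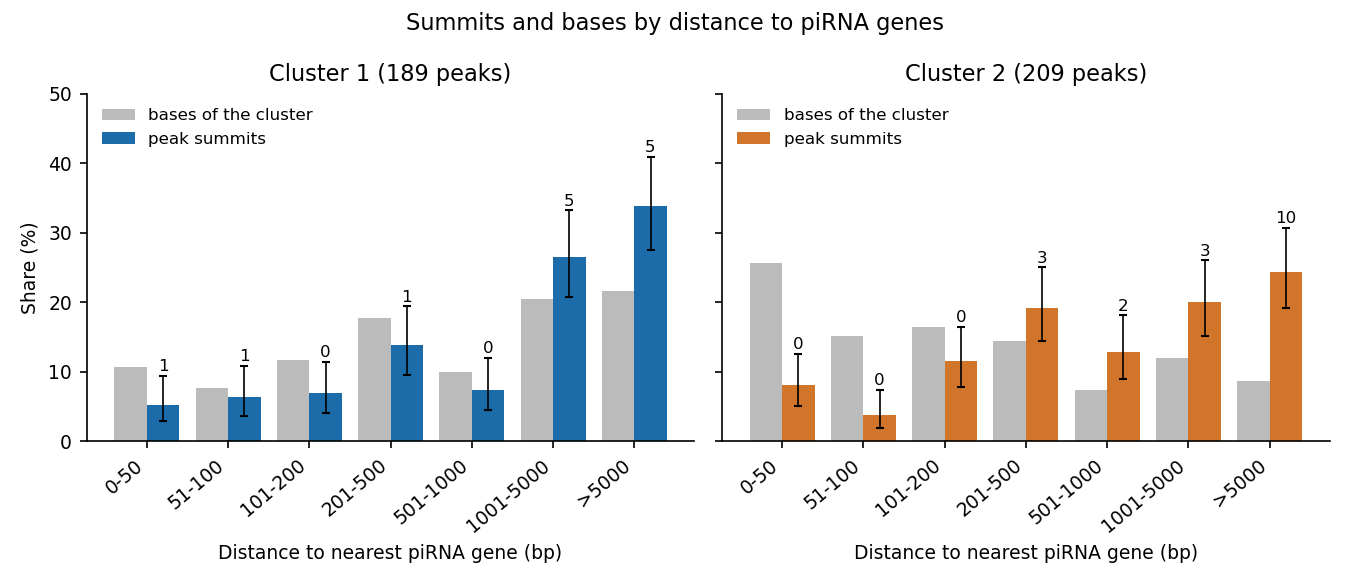
Share of cluster bases (grey) and of peak summits (coloured, with Wilson 95% intervals) by distance in bp to the nearest piRNA gene, in percent of each cluster; numbers above the bars are optimal-list peaks. In cluster 2 the first bin, up to 50 bp, holds 25.7% of bases and 8.13% of summits, and the last, beyond 5000 bp, 8.63% of bases and 24.4% of summits.

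Within 50 bp of a piRNA gene the ratio of the share of summits to the share of bases was 0.493 in cluster 1 and 0.316 in cluster 2. Beyond 5000 bp it was 1.57 and 2.83. The lowest ratio in cluster 2 was 0.251, from 51 to 100 bp, and there the ratio was above 1 in every bin beyond 200 bp. In cluster 1 it was above 1 only beyond 1000 bp. Of the 84 near summits, 34 were on the upstream side of the piRNA gene, 46 downstream and 4 inside it, and the share upstream was 40.5% (Wilson 95% interval 30.6 to 51.2%).

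Peaks near piRNA genes were also the weaker ones. Their signal had a median of 36.4 and reached 139, while the 314 peaks farther away had a median of 42.3. In the optimal list were 2 of the 84 (2.38%, Wilson 95% interval 0.655 to 8.27%) and 29 of the 314 (9.24%, 6.51 to 12.9%), a difference of -6.85 percentage points (Newcombe 95% interval -10.95 to -0.36). Summits in both replicate lists made up 26.2% of the near peaks and 40.4% of the others, a difference of -14.3 points (-24.2 to -2.69). The near summit windows also had a lower median GC, 31.7% against 45.5%, and the part of that in these differences was not tested.

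Both of the near optimal peaks were in cluster 1, and both had another gene close by. One (IV:5364113-5364556, signal 139 together, 69.5 and 69.3 in replicates 1 and 2) lay 84 bp from 21ur-11261, but 29 bp upstream of hda-6, a histone deacetylase gene, and 224 bp upstream of F41H10.4. The other was the tRNA gene peak named above, with 55.8 and 38.1 in the replicates. Its summit lay 29 bp from 21ur-5229 and 22 bp from B0350.t1, and its window, shown above, holds all of that piRNA gene and the first bases of the tRNA gene. Cluster 2, with 11388 piRNA genes, had 0 of its 18 optimal summits within 200 bp of one.

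In each class of location the share of summits was below the unweighted share of bases. In promoters 8.65% of summits (9 of 104) and 35.4% of bases were within 200 bp of a piRNA gene. In gene bodies outside promoters the shares were 19.0% (36 of 189) and 40.6%, and between genes 37.1% (39 of 105) and 57.2%. None of the 3 Wilson 95% intervals, 4.62 to 15.6%, 14.1 to 25.2% and 28.5 to 46.7%, reached the share of bases.

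Peaks were fewest in the windows with most piRNA genes. The clusters were cut into 62 windows of 100 kb, which held from 0 to 486 piRNA genes and from 1 to 15 peaks. In the 34 windows with 200 or more piRNA genes there were 49.1 peaks and 2.35 optimal peaks per Mb. In the 19 windows with 50 to 199 there were 80.0 and 6.84, and in the 9 with fewer than 50 there were 87.8 and 11.1. The step between these last 2 classes rested on the left end of cluster 1: without the window of it that held 5 optimal peaks, the lowest class had 6.25 optimal peaks per Mb, and without its first 3 windows 71.7 peaks and 6.67 optimal peaks per Mb. Promoters covered 13.1%, 21.0% and 20.0% of these 3 classes of window. Spearman's rho between the number of peaks and of piRNA genes was -0.47 over the 62 windows, -0.32 over the 25 of cluster 1 and -0.46 over the 37 of cluster 2, and between peaks and promoter bases it was 0.19 over all. Without those 3 windows it was -0.41 between peaks and piRNA genes over the other 59 and -0.08 over the 22 left in cluster 1. The windows share both libraries, and neighbouring windows are not independent.

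**Figure D3:**
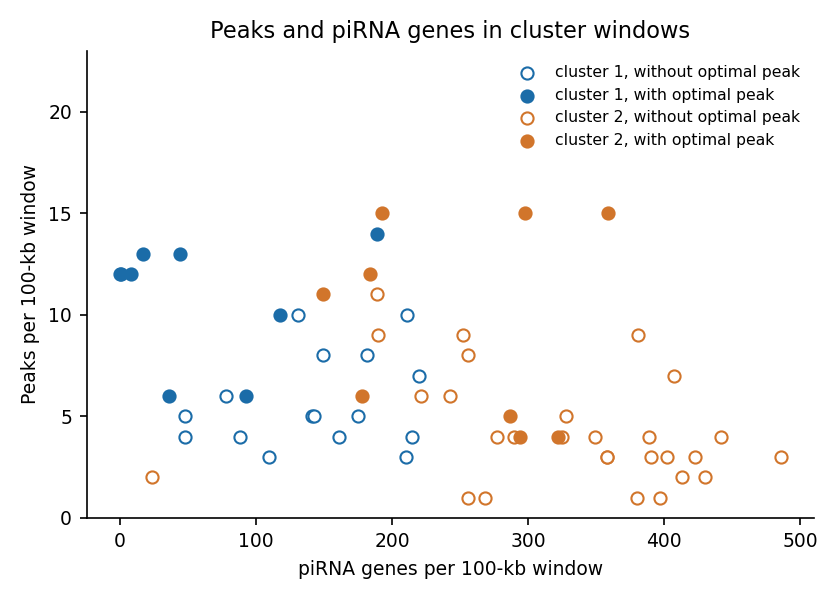
Peaks against piRNA genes per 100-kb window of the 2 clusters, 1 circle per window (blue cluster 1, orange cluster 2; filled where the window held an optimal-list peak). The 34 windows with 200 or more piRNA genes held a median of 4.00 peaks and the 9 with fewer than 50, 3 of them at the left end of cluster 1, a median of 12.0, and 45 of the 62 windows held no optimal peak.

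One end of cluster 1 held few piRNA genes. The first 3 windows of cluster 1 held 9 piRNA genes in all but 6 of the 13 optimal peaks of that cluster, among them those at jmjd-1.2, rpl-20 and yars-2. At the bounds themselves the nearest summits inside had signals of 37.0, 46.6, 32.8 and 39.6 in order along the chromosome, and those just outside 37.0, 59.4, 151 and 37.6. Of these 8 peaks only the one of 151, 12803 bp left of cluster 2, was in the optimal list.

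Base composition moved with nearness to piRNA genes. Cluster bases within 200 bp of a piRNA gene were 29.5% GC and those farther away 35.9%, while the median GC of summit windows was 43.6% for cluster peaks and 44.6% for all peaks. Where the GC of the 101-base window around a base was under 25% or from 25 to 30%, the clusters held 16.8 and 20.5 peaks per Mb and the rest of the chromosome 40.5 and 45.1. In the other 5 classes of GC the 2 densities were closer in ratio and their order varied. The clusters were higher at 35 to 40% (62.0 against 55.5) and 40 to 45% (89.8 against 72.3), and lower at 30 to 35% (41.8 against 44.7), 45 to 50% (189 against 198) and 50% and above (422 against 502). These 2 classes of lowest GC made up 19.2% and 24.4% of cluster bases and 11.1% and 17.3% of the rest. At the densities of the rest in each class the clusters would hold 473 peaks, and the ratio of the 398 found to that number was 0.842.

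**Figure D4:**
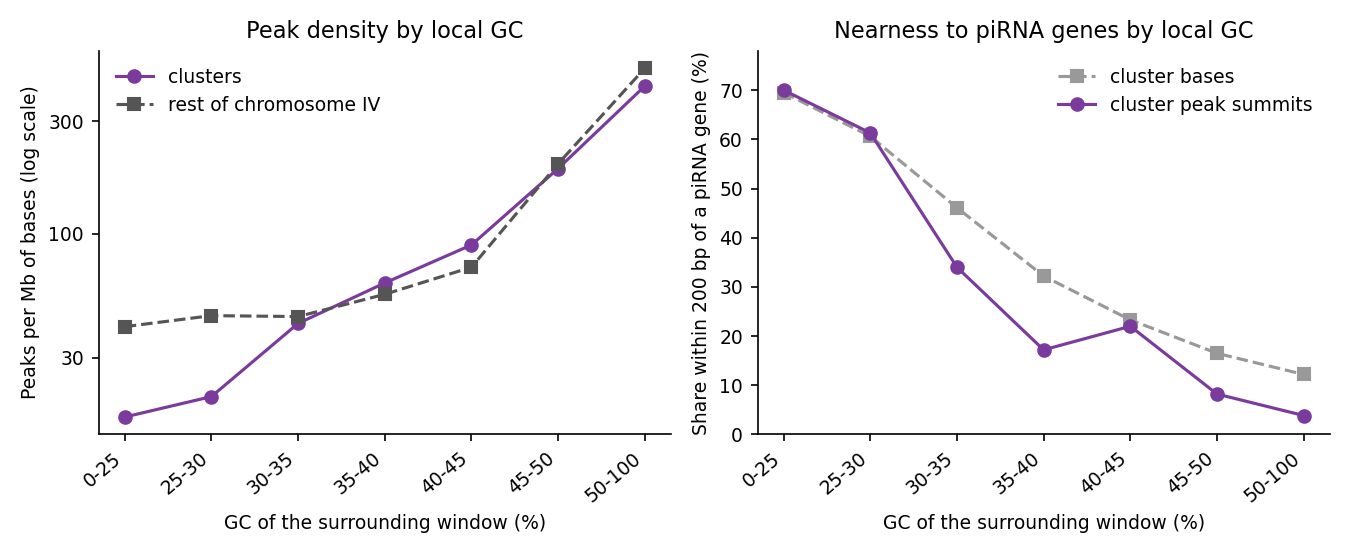
Left, peaks per Mb of bases (log axis) by GC of the surrounding 101 bases in percent, in the clusters and on the rest of chromosome IV; right, percent of cluster bases and of cluster summits within 200 bp of a piRNA gene in the same classes. Below 30% GC the cluster density lies under that of the rest, and the 2 shares on the right are alike (70.0% and 61.3% of summits, 69.5% and 60.6% of bases).

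The GC-weighted 28.7% of bases was nearer to the share of summits than the unweighted value. For optimal peaks the weighted share was 22.0%, against 2 of 31 summits, or 6.45% (Wilson 95% interval 1.79 to 20.7%). From 35 to 40% GC the shares were 17.2% of summits and 32.2% of bases, and from 40 to 45% they were 22.0% and 23.3%. Within 200 bp of a piRNA gene 97.4% of cluster bases began a 36-base word that occurs once in the genome, against 82.1% farther away. The length of 36 bases was chosen here. Whether base composition or the uniqueness of sequence affected the calling of peaks was not tested.

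The Ruby motif word was sought on both strands, no more than 50 bp from each summit. TGTTTCA occurred in 15 of 398 cluster windows (3.77%, Wilson 95% interval 2.30 to 6.12%), in 2.02% of windows of all peaks and in 2.14% on the rest of chromosome IV. The difference from the rest was 1.63 percentage points (Newcombe 95% interval -0.21 to 4.10). Within 100 bp of the summit the word was in 10.6% of cluster windows and 3.76% of those on the rest, and that difference, 6.79 points, had an interval above 0 (3.80 to 10.34). Adjoining cluster windows of 101 bases compare with the 3.77% for 50 bp to either side, not with the 10.6%. Of all of them 13.3% held the word, 22.3% of those within 200 bp of a piRNA gene and 5.54% of the others. Among peaks these shares were 10.7% (9 of 84, 5.74 to 19.1%) and 1.91% (6 of 314, 0.879 to 4.11%), below the windows in both classes. The windows were not matched for GC. Summit windows of the 2 classes had a median GC of 31.7% and 45.5%, while cluster bases of these classes were 29.5% and 35.9% GC. The part of GC in the lower shares was not tested. Of the 31 optimal cluster peaks 2 held it, the weaker of those beside cel-mir-52 and the stronger of those beside K08F11.1.

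Genes of the piRNA pathway were looked up on all chromosomes. Of 41 listed genes 39 were in the annotation, and 1 of them (2.56%) had an optimal summit in the promoter, against 3.12% of all protein-coding genes. It was tofu-1, a gene found in a screen for piRNA production, with a signal of 151 and the summit 59 bp upstream. Peaks before the IDR test lay in the promoters of 9 (23.1%, against 15.8% of all genes), with signals from 33.1 to 59.0 for the other 8. They included snpc-4 (34.8), snpc-3.4 (36.6), unc-130, a forkhead factor gene (34.9), pid-4 (59.0), pid-3 (46.8) and pid-2 (43.1). No peak of either list lay in the promoters of prg-1, prde-1, tofu-4 or tofu-5. Of the listed genes 2 start in the clusters, pgl-1, a germ granule gene with no peak, and slfl-4, with 1 of signal 39.8.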

How the data were processed

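Peaks were deposited as narrowPeak lists on ce10 and ce11: 1 before the IDR test for each of 2 replicates, 1 such list on both together, and the optimal list derived from these, per the metadata deposited with each sample. They held 16060, 9840, 8759 and 690 peaks on ce11. The authors deposited a signal per peak (column 7, on the scale of their caller) and the −log10 of its q-value (column 9). Both are set within a list. Not given in the sources used here are the caller, the aligner, their versions and depth.

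Gene positions came from Ensembl release 115 and sequence from RefSeq, both for WBcel235 (ce11). Summits were compared with them in Python 3.11.15, SciPy 1.17.1 and statsmodels 0.14.6. With 1 group no contrast between samples was possible, so shares carry Wilson and Newcombe 95% intervals and densities an exact conditional binomial interval, all for counting error only, unadjusted for their number, with no p-values. The functions were tested on simulated data. The region, the gene list and the named-peak rule (the 25 strongest optimal cluster peaks, those near small RNA genes, the 3 strongest outside that list, those at the bounds, bound pathway genes) were chosen with earlier results of these data known. The remaining 6 optimal peaks, the sequences of further piRNA genes, the window classes and the GC classes were chosen after values were seen.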

Additional observations from a re-analysis of the deposited data

How the results depend on the processing

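Of 33 alternatives, 13 left a value within its 95% interval and 20 moved it. Some changed the measure itself, such as a cut-off distance or a word window, and were bound to shift a raw share. Weighting bases by GC changed only the share of bases, so the 21.1% of summits near a piRNA gene could not move. The count is therefore no measure of how stable the comparisons were. The density ratio of clusters to the rest of chromosome IV stayed below 1 under all 6 tried. For peaks with a −log10 q of at least 2 it was 0.835, which rests on 44 against 96 peaks and is given without an interval. With GC-specific densities (chosen after the data were seen) it was 0.842, and in the single replicate lists it ran from 0.771 to 0.796. Of cluster peaks 3.77% (15 of 398) were among the 345 strongest of the optimal list, against 3.87% on the rest of the chromosome. A −log10 q of at least 2, whether or not in that list, was reached by 11.1% (9.77% on the rest). In single replicate lists the share in the optimal list was 4.29% to 5.79% (3.85% and 6.59%). The order against the rest thus changed between settings.

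The share of summits near a piRNA gene stayed below the unweighted share of bases under each alternative here, though not in the 2 classes of GC below 30% (70.0% against 69.5% and 61.3% against 60.6%): 11.8% against 31.9% within 100 bp, 37.7% against 62.2% within 500 bp, 34.2% against 59.8% for whole intervals, and 4.55% (2 of 44) for a −log10 q of at least 2. It was 28.7% to 31.6% in single replicate lists, not below the GC-weighted 28.7% of bases for the peaks of both replicates together. These lists are longer in these clusters (770 and 484 peaks). Added after the data were seen were promoters only (8.65%), outside promoters (25.5%), outside promoters and genes (37.1%) and GC of at least 40% (9.75% against 19.1% of bases). Peaks found in both replicates were 25.9% within 50 bp, 47.5% within 200 bp and 54.0% by overlap. TGTTTCA was in 10.6% of windows of 100 bp to either side (3.76% on the rest), where the interval of the difference no longer included 0, and GTTTCA in 9.55% (7.12%, difference 2.43 points, -0.65 to 6.02). The cause of these shifts was not tested. With 31 optimal peaks, intervals on their shares are wide. No paired analysis was possible because there is 1 group.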
